A study of Mus musculus with 8 samples.

Results

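The MS4A and TMEM176 genes encode small proteins that cross the membrane several times and sit in the plasma membrane and in intracellular vesicles of immune cells. In macrophages, MS4A4A associates with the beta-glucan receptor Dectin-1 in lipid rafts, and mouse Ms4a6d forms a surface complex with Vsig4 that restrains inflammatory signalling. Tmem176a and Tmem176b encode relatives of that family, and the Tmem176b protein is known to sit in intracellular vesicles, to mark immature dendritic cells and to restrain the Nlrp3 inflammasome. The members described here were the 9 genes Tmem176a, Tmem176b, Ms4a4a, Ms4a4c, Ms4a6b, Ms4a6c, Ms4a6d, Ms4a7 and Ms4a8a. They were taken by gene name from the array's own annotation, which gave 12 of 39429 probes. The brightest probe stood for each gene, and all 9 genes were among the 18004 kept for testing, which needed a probe well above background, in 1 kind of channel (day 3 or day 0), on both arrays of any group.

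The data came from 8 dual-colour Agilent arrays hybridised with cytoplasmic RNA of macrophages grown from mouse bone marrow (mice of C57BL/6 x B6:129 Ola background). Thoc5 encodes a subunit of the THO complex, which couples transcription to mRNA export. The 4 groups, with 2 arrays each, were ERT2 Cre Thoc5 (flox/flox) cells treated with tamoxifen, the same flox cells left without it, ERT2 Cre control cells with tamoxifen and control cells without it. All groups therefore carried the tamoxifen-inducible Cre, and every array set RNA from day 3 of culture with CSF-1, which makes marrow cells become macrophages, against untreated day 0 RNA of its own genotype and biological experiment. The same day 0 RNA served both arrays of a genotype in an experiment, so the series held 8 day 3 and 4 day 0 RNA samples. The second experiment was run with inverted dyes on the other slide, so experiment, dye direction and slide cannot be told apart. The labels do not say whether animals were pooled.

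The share of probes well above background lay between 51.2% and 57.9% in the single channels, and the scanner marked 0 spots as saturated. Thoc5 had log2 day 3 over day 0 ratios of -3.04 and -3.02 in flox cells with tamoxifen, against -0.74 and -0.77 in flox cells without it. Its ratios were -0.21 and -0.15 in control cells with tamoxifen, against -0.40 and -0.28 in control cells without it. All 8 macrophage markers, Csf1r and Adgre1 among them, were well above background in every channel. In bulk RNA, fewer cells of a type and less RNA per cell cannot be told apart.

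Positions are those of the array's mm9 annotation. The Tmem176a probe lay on chromosome 6 at 48794048 to 48794107, and the Tmem176b probes lay on the opposite strand at 48783831 to 48783890 (the brighter) and at 48788172 to 48788231. The Ms4a members lay on chromosome 19, with Ms4a8a at 11142131, Ms4a7 at 11395903, Ms4a4a at 11467221, Ms4a4c between 11493486 and 11501032, Ms4a6c at 11545580, Ms4a6b at 11604834 and Ms4a6d at 11661426 (probe starts). The Ms4a4a probe was annotated only by a predicted transcript. Exon and UTR positions of the probes were not worked out here. Across the 12 member probes, the longest run of bases shared with a probe of another MS4A or TMEM176 gene was 10 of 60.

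The 3 probes of Ms4a4c differed in sequence content as well as in their readings. The brightest held an uninterrupted repeat of 14 TG units, shown in capitals in a 30-base stretch of each probe (bases 8 to 37 of the first, bases 16 to 45 of the others). The stretches for Tmem176a, Tmem176b and Ms4a7, the 3 genes called for tamoxifen in flox cells, are given beside them, and their probes hold no such repeat.
Ms4a4c, the brightest probe: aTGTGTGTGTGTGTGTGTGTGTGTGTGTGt
Ms4a4c, the second probe: ctccattaattgtatgtacaaggggcaatg
Ms4a4c, the third probe: ctgaacactatcacctctgtgttggctgca
Tmem176a: atgatgtctgtcaaagagactcttcatatg
Tmem176b, the brighter probe: attatgtcattttatccaatgccgataaag
Tmem176b, the dimmer probe: ctcctggcctcaggccagaatccactatgg
Ms4a7: gacttgcctgaaatctcagctttggtagat

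Most members were higher at day 3 than at day 0 in every group. Calls were made by limma at an adjusted p under 0.05, with Benjamini-Hochberg adjustment over all genes tested. In flox cells with tamoxifen 5 of 9 members were higher and 0 lower, where 58.9% of all genes were called (25.5% higher, 33.4% lower). In flox cells without it 7 of 9 were higher and 0 lower, against 57.2% of all genes called (23.8% higher, 33.4% lower). In control cells with tamoxifen 8 of 9 were higher and 0 lower, against 57.7% of all genes (23.9% higher, 33.8% lower). Control cells without it gave the same counts of 8 and 0, against 57.3% of all genes (23.3% higher, 34.1% lower). Both counts of 8 include Ms4a8a, which was not well above background at day 0 and passed the filter only through control cells with tamoxifen. In that order of groups the members' median log2 ratios were 0.84, 1.20, 1.74 and 1.64, and the medians over all genes lay between -0.06 and -0.05. The plot of ratios by group shows every array.

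**Figure D1:**
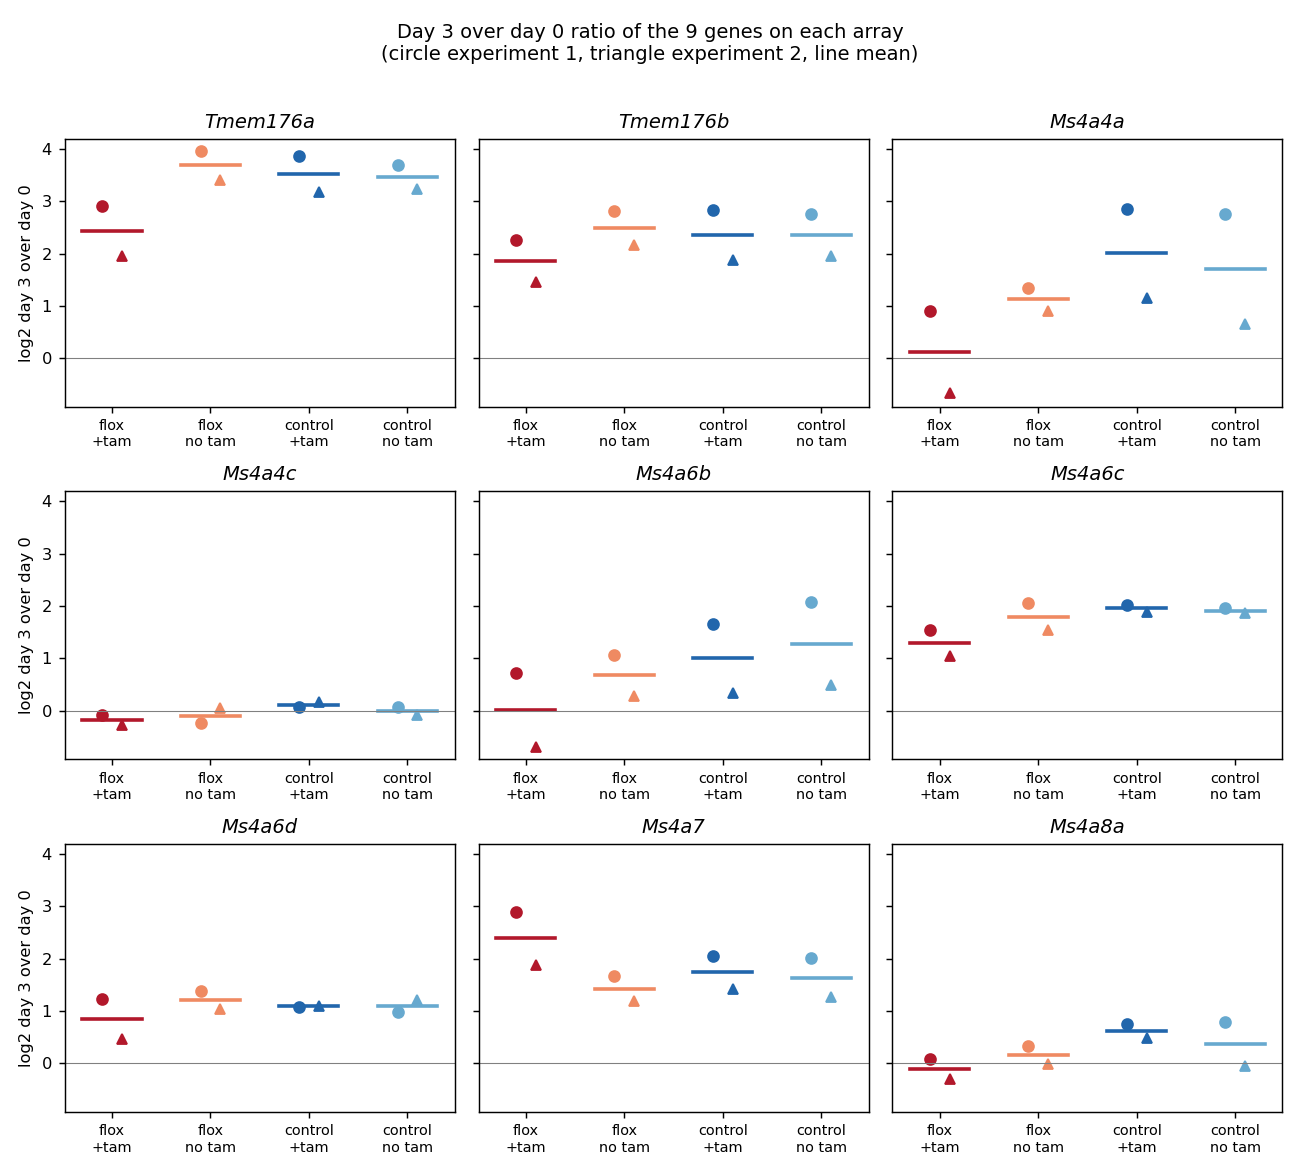
Log2 ratio of day 3 over day 0 RNA (vertical axis) for the brightest probe of each of the 9 genes in the 4 groups (horizontal axis). Circles are experiment 1, triangles experiment 2 and lines the mean of both arrays; Tmem176a and Tmem176b are lowest in flox cells with tamoxifen in each experiment and Ms4a7 is highest there.

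By brightest probes, Tmem176a had the largest fitted rise of the 9 members in each group, although Ms4a7 came close to it in flox cells with tamoxifen (2.39 against 2.43 on the log2 scale), where the dimmer Tmem176b probe gave 2.56. Its log2 day 3 over day 0 ratios were 2.91 and 1.95 in flox cells with tamoxifen (experiments 1 and 2) and 3.96 and 3.41 in flox cells without it. In control cells they were 3.86 and 3.18 with tamoxifen and 3.70 and 3.24 without it. Both arrays of flox cells with tamoxifen lay below all 6 others. The fitted mean ratios were 2.43 ± 0.10 (SE, adjusted p = 1.82e-05) in flox cells with tamoxifen and 3.68 ± 0.10 (adjusted p = 5.68e-06) in flox cells without it. They were 3.52 ± 0.10 in control cells with tamoxifen and 3.47 ± 0.10 in control cells without it, the last an 11.1-fold rise.

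Tmem176b, its partner gene, followed the same pattern at a smaller size. The ratios were 2.25 and 1.46 in flox cells with tamoxifen and 2.81 and 2.16 in flox cells without it. Control cells gave 2.83 and 1.87 with tamoxifen and 2.76 and 1.96 without it. Within each experiment the array of flox cells with tamoxifen was the lowest of the 4, although the ranges over both experiments overlapped. The fitted rise was 3.62-fold in flox cells with tamoxifen, 5.60-fold in flox cells without it, 5.10-fold in control cells with tamoxifen and 5.14-fold in control cells without it. The dimmer Tmem176b probe gave ratios of 2.93 and 2.19 in flox cells with tamoxifen and of 3.37 and 3.03 in flox cells without it.

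Both Tmem176 genes were lower in flox cells with tamoxifen than in those without it. The change of Tmem176a was -1.25 ± 0.14 on the log2 scale (SE, adjusted p = 0.00638), a 2.39-fold lower ratio, and was negative in both experiments. Tmem176b changed by -0.63 ± 0.11 (adjusted p = 0.0221), and its dimmer probe gave -0.64 ± 0.13 in a fit with each probe tested singly (adjusted p = 0.0367). Both calls were lost without the experiment term (adjusted p = 0.149 and 0.581). Without the second array of untreated flox cells the adjusted p of Tmem176a was 0.057, and without any 1 of the flox arrays that of Tmem176b lay between 0.078 and 0.154.

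In control cells the tamoxifen effect was 0.05 ± 0.14 for Tmem176a and -0.01 ± 0.11 for Tmem176b (neither called, 95% intervals -0.29 to 0.38 and -0.28 to 0.25). The difference of the tamoxifen effects between flox and control cells was tested directly. It was -1.30 ± 0.20 for Tmem176a (adjusted p = 0.045) and -0.62 ± 0.16 for Tmem176b (adjusted p = 0.129). Of the 9 members 1 was called for this difference (lower), where 1.14% of all genes were (0.544% higher, 0.594% lower). The call of Tmem176a was lost when any 1 of the 8 arrays was left out, with differences between -1.50 and -1.10. In most of these fits calls over all genes were also fewer or absent. It was lost too without the experiment term and under Agilent's processed ratios (adjusted p = 0.0914 by limma for the latter). Those 2 settings called 22 and 59 of all genes for the difference, against 205 in the main fit.

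The 2 channels can also be read apart. In the day 3 channel alone Tmem176a had log2 intensities of 14.59 and 14.14 in flox cells with tamoxifen, against 16.20 and 16.69 in flox cells without it. The groups did not overlap, and the difference was -2.08 ± 0.20 (adjusted p = 0.00115), which is 4.23-fold and larger than the 2.39-fold of the ratio. Tmem176b had 16.62 and 16.28 with tamoxifen, against 17.48 and 17.67 without it, a difference of -1.12 ± 0.17 (adjusted p = 0.00526). In this reading 14.5% of all genes were called for tamoxifen in flox cells.

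For the Tmem176 pair in flox cells, the day 0 readings moved with those of day 3. The flox day 0 RNA of experiment 2 read 12.19 for Tmem176a on the array shared with tamoxifen-treated cells and 13.28 on the array shared with untreated cells, although it was 1 RNA. In experiment 1 the same pair of readings was 11.68 and 12.25. These gaps of 1.09 and 0.57 stood at or above the 99th percentile of such gaps over all genes, which was 0.54 in experiment 2 and 0.57 in experiment 1, with medians of 0.08 and 0.06. The gaps for Tmem176b were 0.68 and 0.30, in experiments 2 and 1. Control day 0 RNA gave gaps of 0.08 and 0.37 for Tmem176a in the same order. The part of these gaps in the size of the ratio change was not tested. The plot of single channels shows these gaps for the Tmem176 pair. It also shows Ms4a7, which read higher at day 3 but lower at day 0 on the arrays of treated flox cells.

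**Figure D2:**
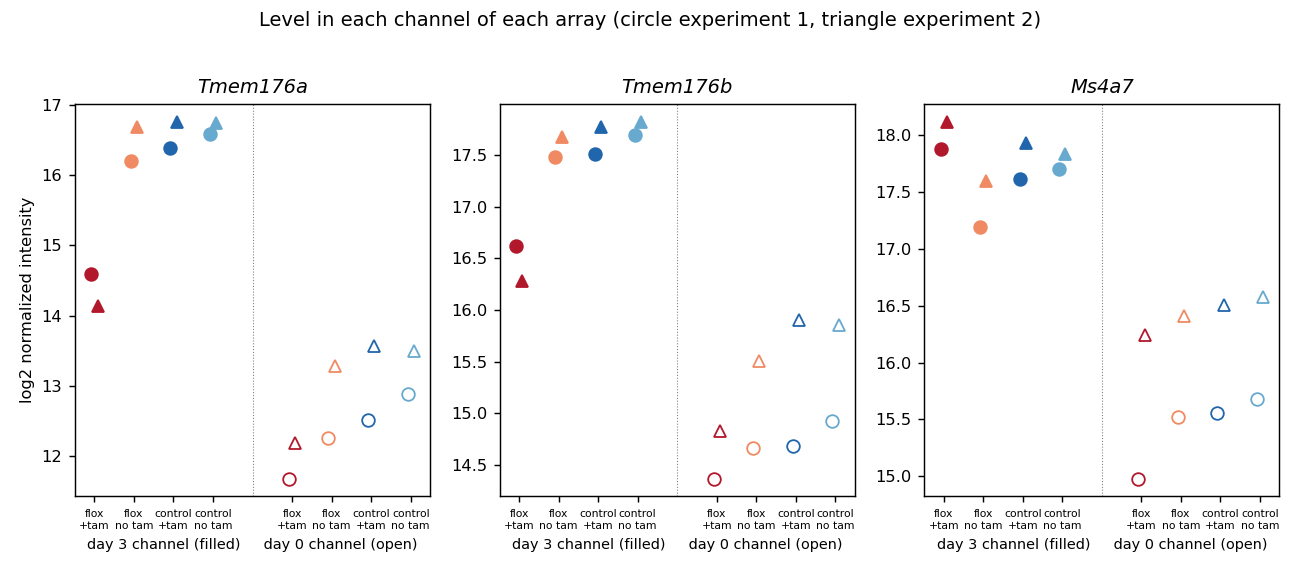
Log2 normalized intensity (vertical axes, separate ranges) of Tmem176a, Tmem176b and Ms4a7 in the day 3 channel (filled, left of each panel) and the day 0 channel (open, right) of the 8 arrays, grouped by the cells of the array. Circles are experiment 1 and triangles experiment 2; open symbols of one shape within a genotype are readings of the same day 0 RNA, and for Tmem176a in flox cells they differ by 0.57 and 1.09.

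The order of the Tmem176a levels over the 6 kinds of RNA ran from control day 3 cells at the top to day 0 RNA at the bottom. The mean log2 levels were 14.36 ± 0.31 in flox cells with tamoxifen, 16.45 ± 0.34 in flox cells without it, 16.57 ± 0.27 in control cells with tamoxifen and 16.67 ± 0.10 in control cells without it (SD, n = 2 each). Day 0 RNA stood at 12.35 ± 0.55 in flox cells and 13.12 ± 0.59 in control cells. The 3 day 3 groups other than flox cells with tamoxifen did not differ from their neighbours beyond their spread. Tmem176b kept the same order, with 16.45 ± 0.24, 17.57 ± 0.14, 17.64 ± 0.19 and 17.75 ± 0.09 at day 3 and 14.84 ± 0.46 and 15.34 ± 0.76 at day 0.

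Tmem176a and Tmem176b start head to head on chromosome 6, and the closest pair of annotated starts is 109 bases apart. The 108 bases between them, from RefSeq (GRCm38.p6, + strand, chr6:48841375-48841482), are shown because the genes moved together, and 63.9% of these bases are G or C.
Tmem176b to Tmem176a: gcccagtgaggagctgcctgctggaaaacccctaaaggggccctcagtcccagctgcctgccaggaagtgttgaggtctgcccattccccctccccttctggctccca
The letters of 5 motifs were searched on both strands: GAGGAAG (the core of PU.1, a master factor of macrophages), TGANTCA (AP-1), GTGGGCG (EGR factors), CACGTG (E-box) and TGCTGAC (MAF). None was found within these 108 bases. One match to the PU.1 letters lies just inside Tmem176a, 8 bases after its start, and one to the EGR letters reaches 24 bases downstream of the Tmem176b start. Both are matches on the - strand, in capitals here as the + strand reads.
Start of Tmem176a, chr6:48841480-48841509: ccacccaggttCTTCCTCctgccagggctg
Start of Tmem176b, chr6:48841339-48841368: agctcttacctCGCCCACcttctccagctc
Among all 32851 promoters of 300 bases in the table, 13.6% hold the PU.1 letters and 8.0% the EGR letters. A match is a run of letters and no evidence of binding. Of the Ms4a members' promoters, one of Ms4a7 holds the AP-1 letters (7.8% of all promoters do), and that of Ms4a8a holds the AP-1 and MAF letters (MAF 4.7%); no promoter of Ms4a4a, Ms4a4c, Ms4a6c or Ms4a6b held any of the 5.

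Ms4a7, a gene known in mice as a marker of monocyte-derived macrophages, went the other way from the Tmem176 pair. Its log2 ratios were 2.90 and 1.88 in flox cells with tamoxifen and 1.67 and 1.19 in flox cells without it. In control cells they were 2.06 and 1.42 with tamoxifen and 2.02 and 1.26 without it. In each experiment the array of flox cells with tamoxifen was the highest of the 4, while the ranges over both experiments overlapped. The tamoxifen effect in flox cells was 0.96 ± 0.15 (SE, adjusted p = 0.0142), a 1.94-fold higher ratio, and in control cells it was 0.10 ± 0.15 (95% interval -0.25 to 0.45). The adjusted p was 0.312 without the experiment term. It was 0.0953 or 0.053 when array 1 or 2 of untreated flox cells was left out, and 0.0763 when array 1 of treated flox cells was.

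In the day 3 channel alone the Ms4a7 change was 0.60 ± 0.10 (adjusted p = 0.00936), smaller than in the ratio. Readings of the same flox day 0 RNA on 2 arrays differed by 0.55 in experiment 1 and 0.17 in experiment 2 for this gene, lower on the array of treated cells. Its log2 levels there were 17.88 and 18.12 in flox cells with tamoxifen and 17.19 and 17.60 in flox cells without it, and the groups did not overlap. The means were 18.00 ± 0.17, 17.40 ± 0.29, 17.77 ± 0.23 and 17.77 ± 0.10 (SD, n = 2 each) in flox cells with and without tamoxifen and in control cells with and without it. Day 0 RNA stood at 15.79 ± 0.76 in flox cells and 16.08 ± 0.66 in control cells. The direct difference of the tamoxifen effects was 0.86 ± 0.21 (adjusted p = 0.114).

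Over all members, 3 of 9 were called for tamoxifen in flox cells, Tmem176a and Tmem176b lower and Ms4a7 higher, where 9.02% of all genes tested were called (4.87% higher and 4.16% lower). None of the 9 was called for tamoxifen in control cells by limma, and none had an unadjusted p under 0.05 there. Of 18000 genes 0 were called and 995 had an unadjusted p under 0.05 in that comparison. The members' median change was -0.50 in flox cells and 0.05 in control cells, against -0.01 and 0.01 over all genes. The plot of changes shows both effects side by side.

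**Figure D3:**
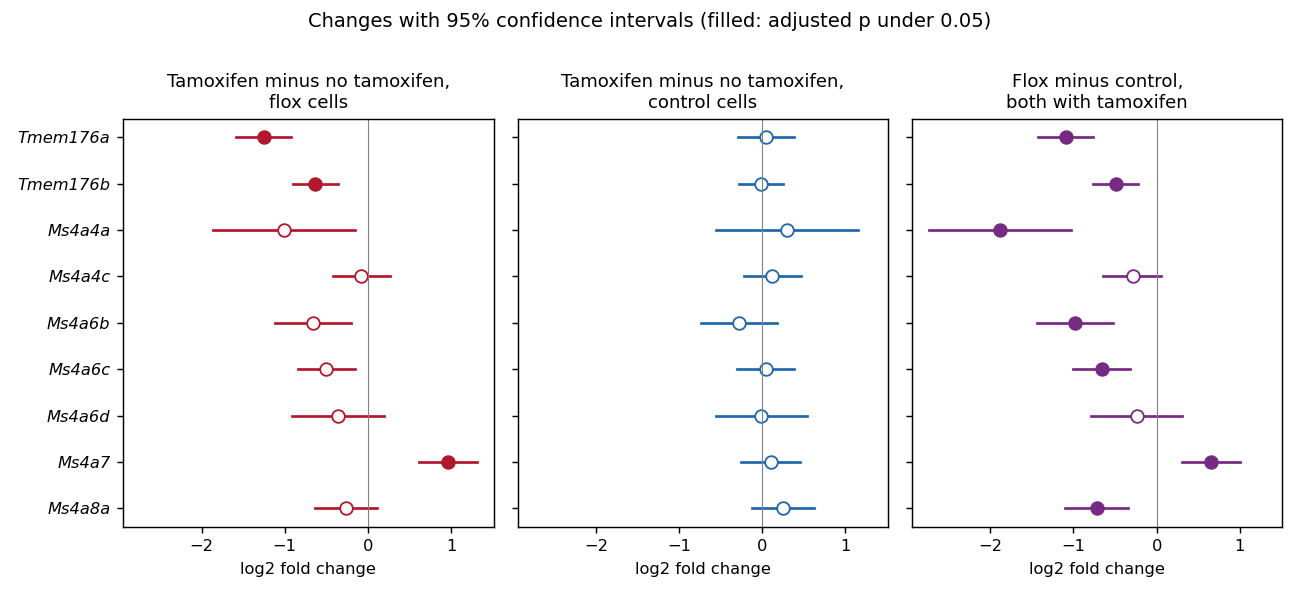
Log2 fold changes (horizontal axes) of the 9 genes with 95% confidence intervals from the fit, for tamoxifen against no tamoxifen in flox cells (left) and in control cells (middle), and for flox against control cells when both had tamoxifen (right). Filled points have an adjusted p under 0.05: 3, 0 and 7 of 9 genes, with Ms4a8a, kept by the filter only through treated control cells, among the 7.

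All 3 Ms4a6 genes were called higher at day 3 in each group, except Ms4a6b in flox cells with tamoxifen (0.02 ± 0.13, adjusted p = 0.919). Ms4a6c had log2 ratios of 1.55 and 1.05 in flox cells with tamoxifen, 2.06 and 1.54 in flox cells without it, 2.03 and 1.88 in control cells with tamoxifen and 1.97 and 1.86 in control cells without it. The arrays of flox cells with tamoxifen lay below both control groups and touched the range of flox cells without it. The tamoxifen effect in flox cells was -0.50 ± 0.14 (adjusted p = 0.0814). In the day 3 channel alone that effect passed the test at -0.59 ± 0.14 (adjusted p = 0.0279).

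Ms4a6b, known also from mouse T cells, had ratios that depended on the experiment. They were 0.72 and -0.69 in flox cells with tamoxifen, 1.07 and 0.29 in flox cells without it, 1.66 and 0.35 in control cells with tamoxifen and 2.07 and 0.49 in control cells without it. Every array of experiment 2 gave a lower ratio than its counterpart, and the day 0 levels were 10.88 and 11.46 in experiment 2 and 10.03 and 10.03 in experiment 1 (flox and control cells). The tamoxifen effect in flox cells was -0.66 ± 0.19 (adjusted p = 0.0856) in the ratio and -0.65 ± 0.18 (adjusted p = 0.0469) in the day 3 channel.

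Ms4a6d, the Vsig4 partner, showed no called change with tamoxifen. Its ratios were 1.23 and 0.46 in flox cells with tamoxifen and lay between 0.99 and 1.38 on the 6 other arrays. The tamoxifen effect in flox cells was -0.36 ± 0.23 (adjusted p = 0.403, 95% interval -0.91 to 0.19). Its rise to day 3 was called in each of the 4 groups, from 1.80-fold in flox cells with tamoxifen to 2.30-fold in flox cells without it.

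Ms4a4a, the Dectin-1 associate, had the largest difference of the 9 members in the ratio between flox and control cells with tamoxifen, while in the day 3 channel Tmem176a differed more. Its log2 ratios were 0.91 and -0.67 in flox cells with tamoxifen, 1.34 and 0.91 in flox cells without it, 2.85 and 1.16 in control cells with tamoxifen and 2.76 and 0.66 in control cells without it. Flox cells with tamoxifen lay below control cells with tamoxifen in both experiments, with no overlap. The tamoxifen effect in flox cells was -1.01 ± 0.36 (adjusted p = 0.141). It was called with median centring (-1.06, adjusted p = 0.000649) and without array 1 of untreated flox cells (-1.69, adjusted p = 0.0315), and was -0.33 without array 2 of those cells (adjusted p = 0.464). In the day 3 channel the mean levels were 14.13 ± 0.42 in flox cells with tamoxifen, 14.98 ± 0.25 in flox cells without it, 15.83 ± 0.13 in control cells with tamoxifen and 15.58 ± 0.45 in control cells without it (SD, n = 2 each).

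Flox and control cells were also compared directly, each with tamoxifen. Of the 9 members 7 were called, where 11.3% of all genes were: 6 lower in flox cells (5.84% of all genes) and Ms4a7 higher (5.42% of all genes). The 6 include Ms4a8a, which was not well above background in flox cells and passed the filter only through control cells with tamoxifen, so its call is no test. The fall was -1.88 ± 0.36 for Ms4a4a (adjusted p = 0.0252), -1.09 ± 0.14 for Tmem176a (0.00981), -0.98 ± 0.19 for Ms4a6b (0.0264), -0.66 ± 0.14 for Ms4a6c (0.0352) and -0.49 ± 0.11 for Tmem176b (0.0387). Ms4a7 differed by 0.65 ± 0.15 (0.0382), and by 0.37 with median centring in place of loess (0.433). This comparison shares the arrays of flox cells with tamoxifen with the tamoxifen effect above. When 1 array of treated flox or treated control cells was left out, most calls were lost, among the members and among all genes. With any 1 array left out, the difference lay between -2.04 and -1.73 for Ms4a4a and between -1.29 and -0.89 for Tmem176a. It lay between -0.60 and -0.39 for Tmem176b and between 0.45 and 0.85 for Ms4a7. Without the experiment term 0 of 9 members and 531 of all genes were called. Under Agilent's processed ratios it was 1 member and 1239 genes. Cell type markers were also called lower in flox cells in this comparison of ratios, and 0 higher. They were 4 of 4 measured mast cell and basophil, 4 of 5 B lineage and 2 of 4 megakaryocyte markers. Added to these were 2 of 8 neutrophil, 3 of 8 macrophage and 1 of 4 dendritic markers. Without tamoxifen the same 4 mast cell and basophil markers were called lower too. Their summed intensity at day 3 was 451 to 538 in treated flox cells and 522 to 527 in treated control cells. At day 0 it was 1430 to 1640 in flox and 681 to 857 in control RNA. The part of such markers in the members' differences was not tested.

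In the day 3 channel alone 6 members (again with Ms4a8a) were lower in flox than in control cells with tamoxifen, where 19.2% of all genes were called. Tmem176a differed there by -2.20 ± 0.20 (adjusted p = 0.000869), Ms4a4a by -1.70 ± 0.25 and Ms4a6b by -1.29 ± 0.18. Ms4a7, called in the ratio, differed by 0.22 ± 0.10 in the channel (adjusted p = 0.175).

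Without tamoxifen 0 of 9 members differed between flox and control cells in limma's test, where 2.87% of all genes did (1.44% higher, 1.43% lower). At an unadjusted p under 0.05 it was 1 of 9 members and 4160 of 18001 genes. That member was Ms4a6b, at -0.60 ± 0.19 (adjusted p = 0.135) in the ratio and -0.87 ± 0.18 (adjusted p = 0.0228) in the day 3 channel. At day 0, before any tamoxifen, again 0 of 9 were called by limma, where 1.14% of all genes were (0.822% higher, 0.322% lower). At an unadjusted p under 0.05 it was 3 of 9 members and 1486 of 18002 genes. Tmem176a was -0.77 ± 0.20 (adjusted p = 0.195), Tmem176b -0.50 ± 0.17 (0.374) and Ms4a7 -0.30 ± 0.10 (0.42). Each day 0 RNA entered as the mean of its 2 readings, which for Tmem176a in flox cells lay 0.57 and 1.09 apart. Neutrophil lineage markers stood apart in the same day 0 RNA, with 5 of 8 called higher in flox cells and summed intensities of 680000 to 750000 in flox against 431000 to 526000 in control RNA. At day 3 those sums were 40100 to 46300 in flox cells with tamoxifen and 58500 to 75100 in control cells with it. Without tamoxifen they were 37600 to 38100 in flox cells and 61800 to 62700 in control cells. Their part in the day 0 levels of the members was not tested.

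Ms4a8a, reported in mice in tumour-associated macrophages, was near the limit of detection. It was well above background in the day 3 channel on both arrays of control cells with tamoxifen and on 1 of 2 arrays of control cells without it, and in no flox or day 0 channel. It passed the filter only through the group where it was brightest. Its log2 levels at day 3 were 6.63 and 6.26 in flox cells with tamoxifen, 6.86 and 6.52 in flox cells without it, 7.35 and 6.82 in control cells with tamoxifen and 7.21 and 6.40 in control cells without it. Day 0 RNA read 6.53 and 6.55 in flox cells and 6.51 and 6.39 in control cells. Treated flox cells lay below treated control cells, by 1.18-fold when the mean of the control arrays is set against the weakest signal well above background on each flox array. That signal is no strict limit of detection. A reading of 6.86 in untreated flox cells was not well above background, while 6.82 in treated control cells was. Because the filter kept the gene through treated control cells, its calls against that group are descriptions and not tests.

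The 3 Ms4a4c probes did not give the same account of that gene. The brightest, with the TG repeat, had ratios of -0.07 and -0.27 in flox cells with tamoxifen and between -0.24 and 0.17 on the 6 other arrays. It was called in none of the comparisons, and its tamoxifen effect in flox cells was -0.08 ± 0.14. The second probe had ratios of -0.66 and -1.85 in flox cells with tamoxifen and 0.04 and -0.25 in flox cells without it. The third probe had -0.42 and -1.30 in flox cells with tamoxifen and 0.42 and 0.18 in flox cells without it. Arrays of flox cells with tamoxifen lay below those of flox cells without it for both of these probes, with no overlap.

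Tested singly among 22407 probes, the third Ms4a4c probe was lower with tamoxifen in flox cells, at -1.16 ± 0.26 (adjusted p = 0.0444). The second probe gave -1.15 ± 0.28 and missed the threshold (adjusted p = 0.0567). In control cells the same probes gave -0.63 ± 0.26 and -0.68 ± 0.28 (adjusted p = 0.885 and 0.894). The difference of the 2 effects was -0.52 ± 0.36 and -0.47 ± 0.40 (adjusted p = 0.582 and 0.663). These fits were added after the probes' values had been seen.

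Probes with a TG repeat resembled each other. Over the 12 RNA samples, the brightest Ms4a4c probe correlated with the 51 other probes holding at least 10 TG units at a median r of 0.91 (range 0.66 to 0.996). Its median r with all 22404 other probes was 0.01. The second Ms4a4c probe had a median r of 0.46 with the same 51 probes, and the third 0.35. Of the 3 genes most like the brightest probe, Sema4c (r = 0.996) and Gm10586 (r = 0.982) were read by probes with such a repeat, and 2310002F09Rik (r = 0.981) was not. No main probe of the 8 other members held one. The 12 samples share arrays and experiments, so these correlations are descriptions, and the cause was not tested.

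**Figure D4:**
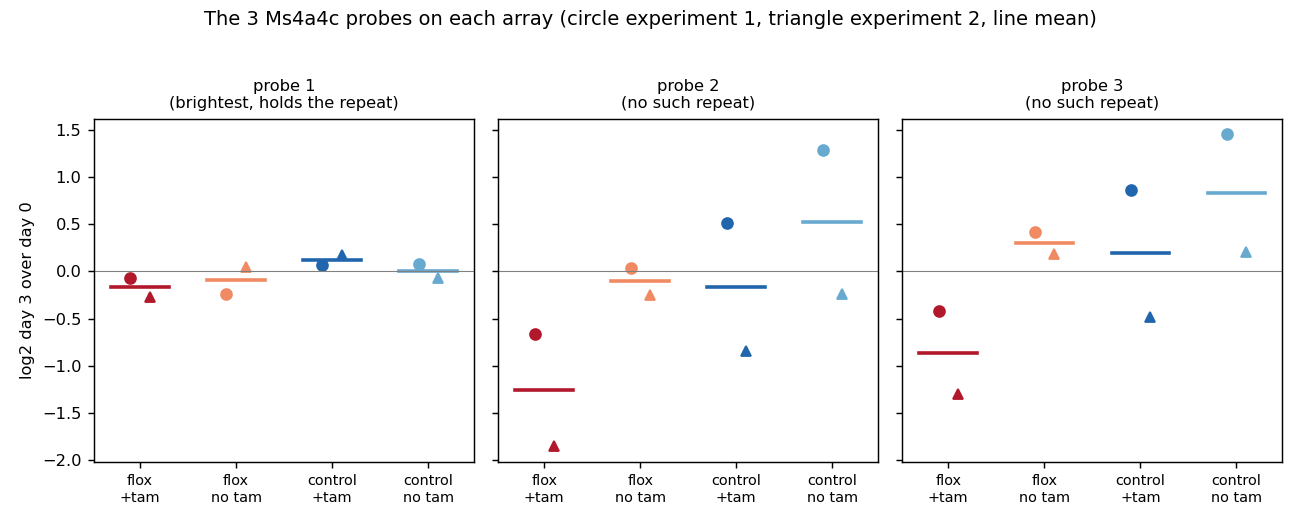
Log2 ratio of day 3 over day 0 RNA (vertical axis) for the 3 Ms4a4c probes, ordered by brightness, in the 4 groups (horizontal axis). Circles are experiment 1, triangles experiment 2 and lines means; probe 1 stays between -0.27 and 0.17 while probes 2 and 3 fall to -1.85 and -1.30 in flox cells with tamoxifen.

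Levels of the members followed each other to different degrees over the 12 RNA samples. Tmem176a and Tmem176b had a Pearson r of 0.99, Ms4a6c correlated at 0.97 with Tmem176a and at 0.98 with Ms4a6d, and Ms4a4a correlated at 0.94 with Ms4a6b. Ms4a7 had values from 0.89 with Ms4a6c and Ms4a6d to -0.20 with Ms4a4c, among them 0.81 with Tmem176a and 0.58 with Ms4a6b. Outside the members, the named genes most like each one were Zbtb4 for Tmem176a (0.978), Trim12c for Tmem176b (0.986), Tmprss4 for Ms4a4a (0.973), Zfp821 for Ms4a6b (0.967), Akirin1 for Ms4a6c (0.991), Gm6425 for Ms4a6d (0.985) and Gm6284 for Ms4a8a (0.927). For Ms4a7 they were Apoe, which encodes the lipid carrier apolipoprotein E, Igbp1 and Epsti1 (0.982 each).

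Few other MS4A genes could be measured. Of 14 listed, 12 were on the array and 4 passed the filter: Ms4a1, Ms4a3, Ms4a4b and Ms4a14. Ms4a3, a gene of granulocyte and monocyte progenitors, was lower at day 3 in each group, by fitted log2 ratios of -5.03 in flox cells with tamoxifen, -4.90 in flox cells without it, -3.83 in control cells with tamoxifen and -3.80 in control cells without it. At day 0 it was higher in flox than in control RNA by 1.81 ± 0.17 (adjusted p = 0.00313). Ms4a1, which encodes the B cell antigen CD20, was well above background in 1 of 8 day 3 channels and in 8 of 8 day 0 channels. Ms4a4b, known from mouse T cells, was the only one of the 4 called for tamoxifen in flox cells, at -0.89 ± 0.16 (adjusted p = 0.0237). Its ratios were -0.28 and -1.30 with tamoxifen, against 0.39 and -0.19 without it. Between flox and control cells with tamoxifen, the ratios of 3 of the 4 were called lower in flox cells, where 5.84% of all genes were. These were Ms4a1, Ms4a3 and Ms4a4b. For Ms4a3 the ratio is taken to day 0 RNA, in which it was higher in flox cells. Its difference was -1.10 ± 0.12 without tamoxifen (adjusted p = 0.0307) and -1.20 ± 0.12 with it (adjusted p = 0.006).

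B lineage markers moved with the same comparison. Their summed intensity was 3690 to 4710 in flox cells with tamoxifen, against 8260 to 9150 in flox cells without it, and 11200 to 12200 and 13800 to 16500 in control cells with and without it. Of 5 measured markers 1 was called for tamoxifen in flox cells, Cd79b at -1.09 ± 0.11 (adjusted p = 0.00497), which was well above background in 8 of 8 day 3 channels. Their part in the members' changes was not tested. Macrophage markers summed to 1090000 to 1110000 in flox cells with tamoxifen and 1080000 to 1100000 without it, although 3 of 8 were called for tamoxifen in flox cells, Cd68 at 0.99 ± 0.22, Fcgr1 at -0.86 ± 0.11 and Itgam at -0.86 ± 0.15.

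Genes whose products are reported to act with these membrane proteins changed in both directions. Of 12 listed, 11 were measured. With tamoxifen in flox cells 3 of them were called higher and 2 lower, where 9.02% of all genes were called (4.87% higher, 4.16% lower). Clec7a, which encodes Dectin-1, had ratios of 1.43 and 1.73 in flox cells with tamoxifen, against -0.31 and -0.40 in flox cells without it. The tamoxifen effect on it was 1.94 ± 0.13 (adjusted p = 0.00182), and it exceeded the tamoxifen effect in control cells by 2.02 ± 0.18 (adjusted p = 0.0158). Control cells had ratios of 0.96 and 1.06 with tamoxifen and 0.96 and 1.22 without it. Flox cells thus stood 0.57 ± 0.13 above control cells with tamoxifen (adjusted p = 0.0368) and lay below them without it, at -1.45 ± 0.13 (adjusted p = 0.0178). The lipid and phagocytic receptor gene Trem2 rose by 1.27 ± 0.17 (0.0108) and the kinase gene Syk, which acts downstream of Dectin-1, by 0.54 ± 0.11 (0.0321). The cytokine gene Il1b changed by -1.90 ± 0.30 (0.0162) and the inflammasome adaptor gene Pycard by -0.73 ± 0.13 (0.0229). Il1b was also lower with tamoxifen in control cells, with fitted log2 ratios of -1.86 with it and -0.86 without it. The difference of tamoxifen effects between flox and control cells was called for Clec7a alone. Its adjusted p by limma was 0.0978 for Trem2, 0.105 for Syk, 0.396 for Il1b and 0.124 for Pycard. In control cells 0 of the 11 were called for tamoxifen by limma, where 0 of 18000 genes were, so that count does not set these genes apart.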

How the data were processed

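Each array was scanned and quantified by the authors with Agilent Feature Extraction 10.7.3.1 (per the submitters' processing notes and the file headers), and the deposited files give spot and background intensity per channel and a log10 ratio of processed signals; annotation is mm9 per the file headers. The authors' deposited table of values is on the log10 scale and equals those ratios, turned to day 3 over day 0. From the intensity values, background was corrected (normexp, offset 50), arrays were normalized by loess within the array, and log2 ratios were fitted with limma 3.58.1 in R 4.3.3: 4 group means plus an experiment term, which also carries dye and slide (3 residual degrees of freedom). Single-channel levels were scaled between arrays (Aquantile) and fitted over the 12 RNA samples with experiment and dye terms. The brightest probe stood for a gene; 18004 genes with a probe well above background on both arrays of a group in a channel were tested, with Benjamini-Hochberg adjustment over all of them. Same-numbered arrays come from one biological experiment per the labels; their deviations from the group means correlated at 0.31 to 0.73. Each model was run on simulated data with noise drawn independently for each array or RNA sample. That check does not cover the correlation of arrays that share a day 0 RNA. Genes are named for all 9 members, listed genes that were called, and up to 3 genes most correlated with each member. Members, gene lists and motifs were chosen with earlier results of these data known. Arrays number 2 per group, which limits the precision; with 3 residual degrees of freedom each call leans on the spread shared over genes. Alternatives tried covered background and normalization, filters, probes, the experiment term, blocks and left-out arrays.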

Additional observations from a re-analysis of the deposited data

Results flagged for a closer look

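The tamoxifen effect on Tmem176a differed between flox and control cells by -1.30 on the log2 scale (limma, adjusted p = 0.045). The difference was -1.21 in experiment 1 and -1.40 in experiment 2, and the flox change was negative in both. This call was lost when any single array was left out, without the experiment term and under Agilent's processed ratios.

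Between flox and control cells with tamoxifen, the day 3 over day 0 ratio was called for 7 members by the same test, where 11.3% of all genes were. Ms4a4a differed by -1.88, Tmem176a by -1.09, Ms4a6b by -0.98, Ms4a8a by -0.72, Ms4a6c by -0.66, Tmem176b by -0.49 and Ms4a7 by 0.65. Without the experiment term 0 members were called, and under Agilent's processed ratios 1 was. The value of Ms4a8a is a fitted value of a probe that was not well above background in flox cells. That probe passed the filter only through treated control cells, so its call is no test. Set against the weakest signal well above background, which is no strict limit, the gap was 1.18-fold. For these members the difference was taken over ratios to separate day 0 RNAs of each genotype. In those RNAs Tmem176a read -0.77 ± 0.20 in flox against control, without passing the test (adjusted p = 0.195). That value averages 2 readings of each flox day 0 RNA, which differed by 0.57 in experiment 1 and 1.09 in experiment 2.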

How the results depend on the processing

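No called change of a member turned its direction under the alternatives run or with an array left out. Uncalled ones could, such as Tmem176a between flox and control cells without tamoxifen (0.21, and -0.22 in the day 3 channel). Dropping the experiment term (no replicate block; the experiments are paired per the labels) left 5 members called in the day 3 ratio of untreated control cells, 0 for the tamoxifen effect in flox cells, 0 for the difference of effects and 0 for flox against control cells with tamoxifen. Of all genes it called 470, 22 and 531 for the last 3, against 1624, 205 and 2026 with the term, 2 against 517 without tamoxifen and 87 against 206 at day 0. Median centring gave 2 members (378 genes) for the difference, and 27 genes for tamoxifen in control cells. Agilent's processed ratios and the deposited table each gave 0 members (59 genes) for the difference, 1 member (1239 genes) for flox against control cells with tamoxifen, and 5 genes without it, 1 of them higher. Treating the day 0 RNA common to 2 arrays as a random block gave 5 members (2905 genes) for tamoxifen in flox cells and 824 genes for the difference. The day 3 channel alone gave 5 members (2604 genes) for tamoxifen in flox cells, 796 genes for the difference, 3464 genes for flox against control cells with tamoxifen and 1 member (1970 genes) without it. At day 0, no filter, the strict filter and Agilent's signals per channel called 128, 101 and 130 genes. In both settings with 5 members, Ms4a6b and Ms4a6c were the added ones. Leaving out each array in turn gave 0 to 3 members for the tamoxifen effect in flox cells, 0 to 0 for the difference, 0 to 7 for flox against control cells with tamoxifen, and 4 to 5, 5 to 7, 7 to 8 and 7 to 8 for the day 3 ratios of treated flox, untreated flox, treated control and untreated control cells; a lone array was then assumed to vary like the other groups. With tamoxifen in flox cells, 0 were called without array 2 of untreated flox cells and 1 without array 1 of treated ones. Fewer samples enter each such fit. The other causes were not tested. The slide splits the arrays as the experiment does and was not run apart. Of 857 single-gene values under the other settings, 807 kept their side of the threshold, 36 lost the call and 14 gained it. Part of that agreement was fixed in advance, so the tally is no measure of robustness. Scaling between arrays leaves the ratios unchanged, and the deposited table repeats Agilent's ratios. Averaging over probes does not alter the ratios of members with a single probe. Signals near background limit Ms4a8a alone among the members.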
